A study of Mus musculus with 18 samples.

Results

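The genes described here are 10 of the 47729 genes in the count table of a colon RNA-Seq study, chosen by their symbols: the Toll-like receptor genes *Tlr1*, *Tlr2*, *Tlr3*, *Tlr4*, *Tlr5*, *Tlr7* and *Tlr9*, the adaptor *Myd88*, the co-receptor *Cd14* and the inhibitor *Sigirr*. All 10 symbols were found, each with 1 row. RNA of 9 mice on a C57BL/6 background was compared in 3 groups of 3. Control WT mice were wild-type mice labelled as controls. AOM-DSS WT mice were wild-type mice given a single dose of azoxymethane (AOM), a colon carcinogen, at 10 mg/kg, followed by 2.5% dextran sulfate sodium (DSS), which injures the mucosa, in 3 cycles, a combination used to model colitis-associated cancer. AOM-DSS Claudin-2TG mice had the same treatment and carried a *Cldn2* transgene under the villin promoter, which is active in the intestinal epithelium. The methods name littermate controls matched for age and sex but give no age for these mice. The same AOM and DSS protocol stands under all samples in the deposited descriptions, controls included, and the treatment label decided which mice were Control WT. No untreated transgenic group was analysed here, so genotype and treatment differ together between AOM-DSS Claudin-2TG and Control WT mice.

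Toll-like receptors sense conserved molecules of microbes and pass the signal through a shared intracellular domain to adaptor proteins. Tlr1, Tlr2, Tlr4, Tlr5 and Tlr6 sit at the cell surface and bind lipoproteins, lipopolysaccharide or flagellin, while Tlr3, Tlr7 and Tlr9 bind nucleic acids inside endosomes. Myd88 is the adaptor of every Toll-like receptor except Tlr3 and leads to activation of NF-kB, a transcription factor of inflammation. In the colon these receptors face the microbiota and are found on epithelial cells as well as on macrophages, dendritic cells and B cells.

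Each mouse had 14142711 to 22262546 reads assigned to genes once both lanes of its library were added up. Mitochondrial genes held 2.86% to 3.50% of these in Control WT, 3.54% to 4.69% in AOM-DSS WT and 4.575% to 5.76% in AOM-DSS Claudin-2TG mice. Every Control WT mouse thus lay below every treated mouse, and the part of this share in the levels below was not tested. Values are CPM, each gene's count relative to the total of its library, normalised over the 9 mice. The 7 epithelial markers summed to between 14900 and 19800 CPM in every mouse, and none of these markers was at 0. *Cldn2*, whose counts do not separate the transgene from the mouse's own gene, was at 208 to 251 CPM in AOM-DSS Claudin-2TG, 119 to 137 CPM in AOM-DSS WT and 192 to 259 CPM in Control WT mice. It was higher in AOM-DSS Claudin-2TG than in AOM-DSS WT mice (log2 fold change 0.78, edgeR adjusted p = 0.0103) and lower in AOM-DSS WT than in Control WT mice (-0.82, 0.0138), while AOM-DSS Claudin-2TG and Control WT mice overlapped (-0.03, 0.897). Control WT mouse 1 stood apart with *Xist*, which marks an inactive X chromosome, at 214 CPM, while the other 8 mice had at most 0.203 CPM. Its Y-linked genes summed to 0.498 CPM against at least 146 CPM in the other 8, so the Control WT group held 1 female-type library among male-type ones, although the methods name matched sexes. Where no read was counted, a level of up to 3 counts, or 0.135 to 0.212 CPM depending on the library, remains possible from counting error alone.

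The promoter of *Tlr2* is shown because *Tlr2* had the lowest adjusted p of the 10 genes, and that of *Tlr3* because it holds the same kind of motif while the gene's levels overlapped in all groups. Promoter windows of 300 bases (250 before to 50 after the start, RefSeq, GRCm38.p6) were at hand for 6 of the 10 genes, namely *Tlr1*, *Tlr2*, *Tlr3*, *Tlr5*, *Tlr9* and *Myd88*. The NF-kB consensus, searched on both strands, was found in those of *Tlr2* and *Tlr3* and in 8.46% of 32851 promoter windows of the mouse genome. In *Tlr2* it began at -173 and -172, where both matches overlap, and at -8, counted from the start of transcription. In *Tlr3* it began at -211. For both genes the RefSeq start lies inside the deposited gene, so part of the windows overlaps the counted region. Capitals mark the consensus, and each sequence is given 5′ to 3′ on the minus strand that encodes the gene. The sequences lie at chr3:83841768-83841858 and chr3:83841597-83841626 for *Tlr2* and at chr8:45410572-45410601 for *Tlr3*.
Tlr2, from -250 to -160: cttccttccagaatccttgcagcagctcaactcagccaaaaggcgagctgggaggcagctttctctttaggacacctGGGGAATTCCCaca
Tlr2, from -18 to 12: ccctgacctgGGGACATCCCcttccctcac
Tlr3, from -221 to -192: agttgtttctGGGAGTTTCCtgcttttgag
The core motif of the myeloid factor PU.1 (GAGGAA, both strands, found in 28.3% of the windows) was present in those of *Tlr1* and *Tlr9*. These matches are letters in a window and were not tested for binding.

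*Tlr1* and *Tlr6* are neighbouring genes of near-identical parts, and reads from such parts cannot be assigned to either gene. Of the 3332 stretches of 50 bases in *Tlr1* transcripts, 454 (13.6%) also occur in *Tlr6*. The longest identical stretch is 229 bases inside a coding exon of each gene, at chr5:64925537-64925765 in *Tlr1* and at chr5:64953828-64954056 in *Tlr6* (GRCm38, minus strand).
Tlr1 and Tlr6, identical: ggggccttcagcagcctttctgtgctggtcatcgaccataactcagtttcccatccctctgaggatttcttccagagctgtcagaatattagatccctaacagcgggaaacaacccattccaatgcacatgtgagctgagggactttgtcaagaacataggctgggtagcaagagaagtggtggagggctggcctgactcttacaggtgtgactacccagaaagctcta
How reads with several matches were counted is not given in the sources used here. Of the other members, *Tlr2*, *Tlr5*, *Tlr7*, *Tlr9*, *Cd14* and *Sigirr* share no stretch of 50 bases with another gene's transcripts. *Tlr3* shares 288 of 5436 stretches (5.3%) with *Gm45542*, *Tlr4* shares 12 with other genes, and *Tlr1* shares 513 in all, with 307 genes. *Myd88* shares 290 exon bases with *Acaa1a*, which is encoded on the opposite strand, so without strand their reads cannot be told apart there.

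Per kilobase of exon, *Cd14* was the most abundant of the 10 genes in every group and, by its mean, *Tlr1* was the most abundant Toll-like receptor, though in AOM-DSS WT mice it overlapped with *Tlr2*. In Control WT mice the mean levels were 64.9 CPM per kilobase for *Cd14*, 25.5 for *Tlr1*, 22.2 for *Sigirr*, 15.3 for *Myd88*, 7.33 for *Tlr3*, 6.30 for *Tlr2* and 4.37 for *Tlr4*. *Tlr5* at 0.397, *Tlr9* at 0.113 and *Tlr7* at 0.0713 CPM per kilobase were far lower. The mice did not separate *Tlr1* from *Sigirr*, *Tlr3* from *Tlr2*, *Tlr2* from *Tlr4* or *Tlr9* from *Tlr7* in this order. In AOM-DSS WT mice *Tlr2* stood above *Tlr3*, at 14.2 ± 4.27 CPM per kilobase (SD, n = 3 mice) against 7.42 ± 0.925 (SD, n = 3 mice), without overlap, and overlapped with *Myd88* at 17.2 ± 2.38 (SD, n = 3 mice). AOM-DSS Claudin-2TG mice had the order of Control WT mice except that *Tlr4* (5.11 CPM per kilobase) and *Tlr2* (4.24) changed places, and likewise *Tlr7* and *Tlr9*, within overlapping mice.

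**Figure D1:**
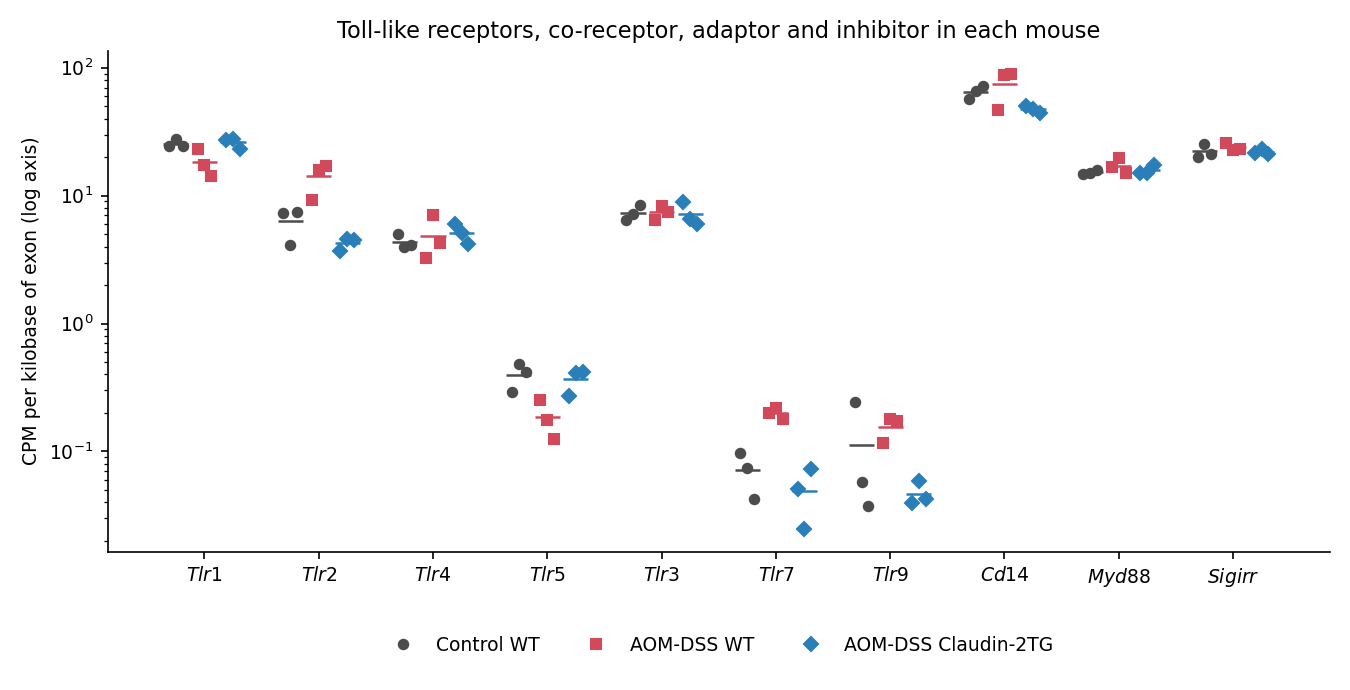
Levels of the 10 genes in each mouse, in CPM per kilobase of exon on a log axis. Points are single mice, short lines are group means (n = 3), and genes are ordered as surface receptors, endosomal receptors, co-receptor, adaptor and inhibitor. The *Tlr2* points of the AOM-DSS WT group lie above those of both other groups, and *Tlr7* and *Tlr9* lie near the detection limit.

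In WT mice, *Tlr2* RNA was higher after AOM-DSS treatment. All 10 members were among the 15437 genes tested, and 2 (*Tlr2* and *Tlr7*) were called at an adjusted p under 0.05, both higher in AOM-DSS WT mice, with *Tlr7* entering the test only through those mice. Among all genes tested, 15% (2310) were called, 8.04% higher and 6.92% lower. The mice of the groups did not overlap for 4 members (*Tlr1*, *Tlr2*, *Tlr5* and *Tlr7*), against 38.0% of all genes. The median log2 fold change was 0.19 over the members and 0.02 over all genes, and 4 members had an unadjusted p under 0.05, as had 5032 of all genes. In bulk colon, fewer cells of a type and less RNA per cell cannot be told apart.

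Between the treated groups, which differ by the *Cldn2* transgene, *Tlr2* was lower in AOM-DSS Claudin-2TG than in AOM-DSS WT mice. It and *Tlr7*, which again entered only through the AOM-DSS WT mice, were the 2 members called of 9 tested. Of 14888 genes tested, 9.54% were called, 2.19% higher and 7.35% lower. Groups did not overlap for 3 of the tested members (*Tlr2*, *Tlr5* and *Tlr7*), against 28.5% of all genes. The median log2 fold change was -0.15 over the tested members and 0.01 over all genes, and 5 members had an unadjusted p under 0.05, as had 3498 of all genes. Both comparisons use the same AOM-DSS WT mice, so a high or low value in those 3 mice moves both in opposite directions. With so few genes, 2 called of 10 and 2 of 9 say nothing particular about the members beside these shares.

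When AOM-DSS Claudin-2TG mice were compared with Control WT mice, *Cd14* was the only member called of 8 tested, and it was lower. Here 10.0% of 15013 genes were called, 3.92% (589 genes) higher and 6.07% (912) lower, and with library size alone as the scaling 276 were higher and 1310 lower. *Cd14* was also the only tested member without overlap between the groups, against 31.2% of all genes. The median log2 fold change was -0.02 over the tested members and 0.00 over all genes, and 2 members (*Tlr2* and *Cd14*) had an unadjusted p under 0.05, as had 3896 of all genes.

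**Figure D2:**
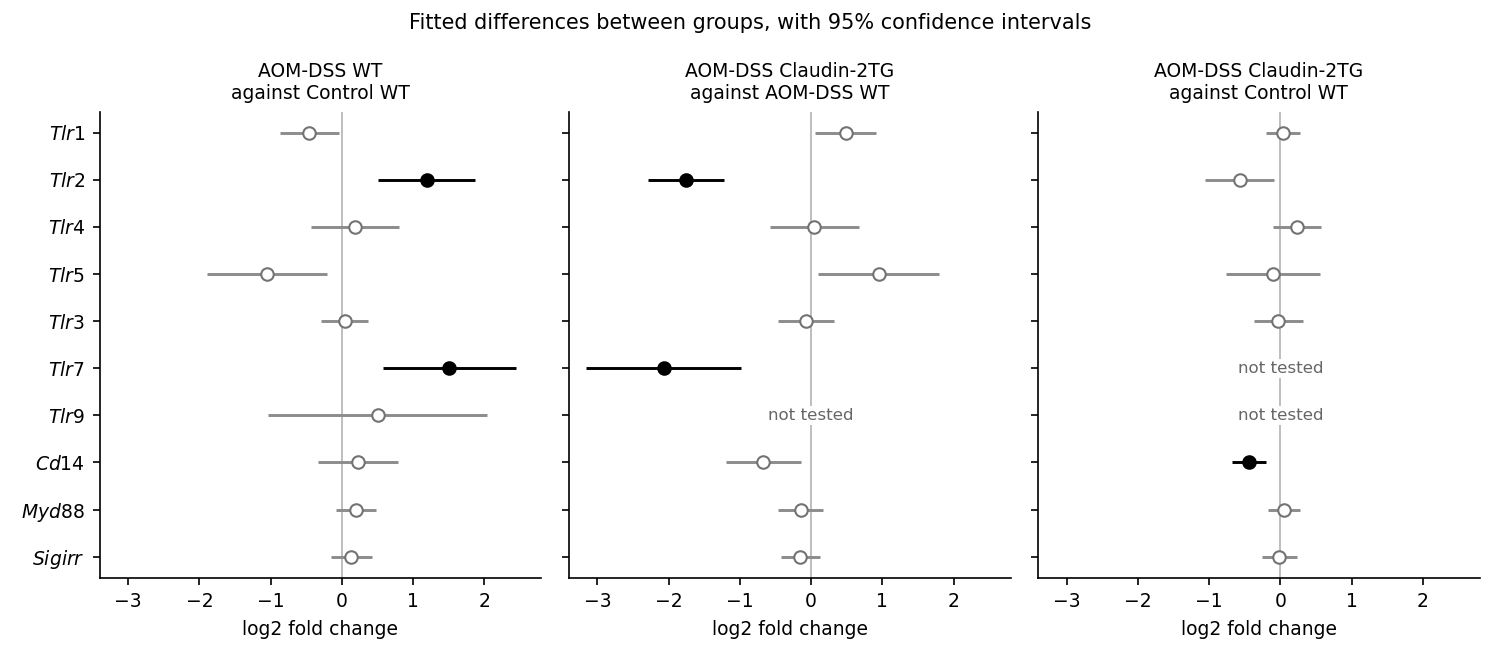
Log2 fold change of each gene in the 3 comparisons, from edgeR's quasi-likelihood fit over all genes. Lines are 95% confidence intervals, filled points were called at an adjusted p under 0.05, and genes with too few reads are marked as not tested. *Tlr2* and *Tlr7* lie to the right in the left panel and to the left in the middle panel, and *Cd14* is the only filled point in the right panel.

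*Tlr2* (ENSMUSG00000027995, chr3:83836272-83841767, minus strand) encodes a receptor for bacterial lipoproteins that works as a pair with Tlr1 or Tlr6. Control WT mice had 22.0, 12.5 and 22.5 CPM, AOM-DSS WT mice 27.9, 48.2 and 51.8 CPM, and AOM-DSS Claudin-2TG mice 11.1, 13.8 and 13.4 CPM. Every AOM-DSS WT mouse was above every mouse of the other groups, and mouse 4 with 27.9 CPM lay nearest to them. AOM-DSS WT mice exceeded Control WT mice 2.28-fold, a log2 fold change of 1.19 (SE 0.29, edgeR adjusted p = 0.0369). AOM-DSS Claudin-2TG mice were 3.38-fold lower than AOM-DSS WT mice, with a log2 fold change of -1.76 (SE 0.23, edgeR adjusted p = 0.00777). In the exact permutation test, taken as two-sided, both differences had p = 0.1, the smallest that 3 mice against 3 allow. Against Control WT mice the transgenic mice overlapped, with a log2 fold change of -0.57 (95% interval -1.05 to -0.08, edgeR adjusted p = 0.133). That difference was called without a filter on low counts (edgeR adjusted p = 0.00683) and without Control WT mouse 2 (-0.79, 0.0145). The call in AOM-DSS WT against Control WT mice ended without a filter on low counts (edgeR adjusted p = 0.066) and in 5 of the 6 fits that each left out 1 mouse (0.0822 to 0.102), all but the one without AOM-DSS WT mouse 4. The call between the treated groups ended without AOM-DSS Claudin-2TG mouse 8 (0.052) or mouse 9 (0.0506).

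*Tlr1* (ENSMUSG00000044827, chr5:64924679-64933563, minus strand), the partner of Tlr2 for triacylated lipoproteins, had values in the opposite order. The Control WT mice had 81.5, 92.9 and 81.7 CPM, the AOM-DSS WT mice 78.1, 58.1 and 47.3 CPM, and the AOM-DSS Claudin-2TG mice 91.1, 93.3 and 76.9 CPM. Each AOM-DSS WT mouse was below each Control WT mouse, while 1 AOM-DSS Claudin-2TG mouse fell within the range of the AOM-DSS WT mice. Neither difference was called, and the log2 fold changes were -0.46 (95% interval -0.87 to -0.04, edgeR adjusted p = 0.123) in AOM-DSS WT against Control WT mice and 0.49 (95% interval 0.06 to 0.91, edgeR adjusted p = 0.155) between the treated groups. Without AOM-DSS WT mouse 4 both were called, at -0.68 (edgeR adjusted p = 0.0075) and 0.71 (0.00926). AOM-DSS Claudin-2TG and Control WT mice differed by 0.04 on the log2 scale (95% interval -0.20 to 0.27).

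The ratio of *Tlr2* to *Tlr1*, each per kilobase, was 0.300, 0.149 and 0.306 in Control WT mice. It was 0.397, 0.921 and 1.22 in AOM-DSS WT mice and 0.135, 0.164 and 0.194 in AOM-DSS Claudin-2TG mice. The AOM-DSS WT mice did not overlap with either other group, and in 1 of them *Tlr2* exceeded *Tlr1*. *Tlr6*, the other partner of Tlr2, was low in every mouse, between 0.591 and 1.42 CPM, so that *Tlr1* exceeded it 41.4-fold to 145-fold per kilobase. *Tlr6* had log2 fold changes of 0.24 (edgeR adjusted p = 0.693) in AOM-DSS WT against Control WT mice and -0.42 (0.601) between the treated groups.

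**Figure D3:**
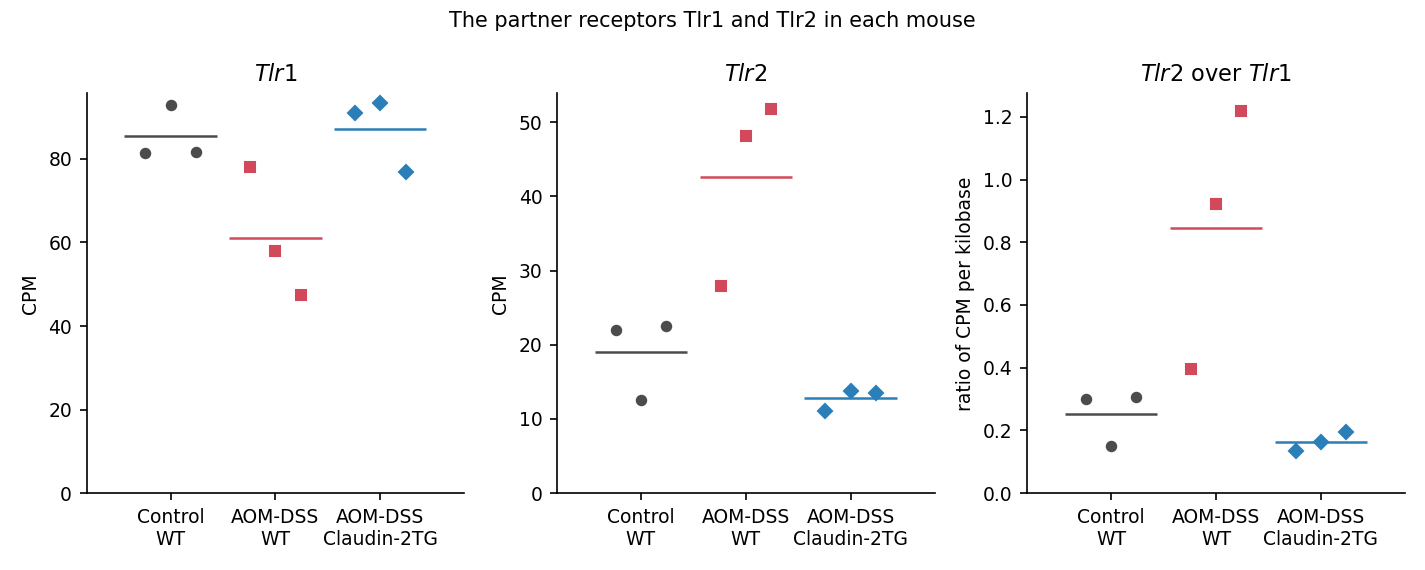
*Tlr1* and *Tlr2* in CPM and their ratio per kilobase of exon, in each mouse. Points are mice, lines are group means (n = 3), and all axes start at 0. The ratio reaches 1.22 in the AOM-DSS WT group and is at most 0.306 in Control WT mice and 0.194 in AOM-DSS Claudin-2TG mice.

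*Tlr4* (ENSMUSG00000039005, chr4:66827584-66930284, plus strand), the receptor of lipopolysaccharide, did not pass the test in any comparison. Its levels were 27.9, 21.9 and 23.0 CPM in Control WT mice, 18.2, 39.2 and 23.8 CPM in AOM-DSS WT mice, and 33.5, 28.4 and 23.3 CPM in AOM-DSS Claudin-2TG mice. The AOM-DSS WT mice held both the lowest and the highest value of all 9. The log2 fold change was 0.18 (95% interval -0.43 to 0.80) in AOM-DSS WT against Control WT mice, 0.05 (95% interval -0.58 to 0.68) between the treated groups and 0.23 (95% interval -0.10 to 0.57) in AOM-DSS Claudin-2TG against Control WT mice. The sign of the first turned without AOM-DSS WT mouse 5 (-0.17), and that of the second turned with library size alone as the scaling (-0.05) and without AOM-DSS WT mouse 4 or 6 or AOM-DSS Claudin-2TG mouse 7.

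*Cd14* (ENSMUSG00000051439, chromosome 18, minus strand) encodes the co-receptor that hands lipopolysaccharide to Tlr4 and also serves Tlr2. It stood at 89.5, 102.9 and 113.4 CPM in Control WT mice and at 73.0, 136.8 and 141.6 CPM in AOM-DSS WT mice. The AOM-DSS Claudin-2TG mice had 79.1, 75.0 and 70.0 CPM, all below the Control WT mice. That difference was called, with a log2 fold change of -0.44 (SE 0.11, edgeR adjusted p = 0.0274), a 1.36-fold lower level. AOM-DSS WT mouse 4 lay among the transgenic mice, and the fold change between the treated groups of -0.67 was not called (95% interval -1.20 to -0.14, edgeR adjusted p = 0.117), nor was that of AOM-DSS WT against Control WT mice (0.23, 0.554). Without mouse 4 both were called, at -0.91 (edgeR adjusted p = 0.00099) and 0.47 (0.0264), and DESeq2 also called the first (-0.67, adjusted p = 0.0412). The call against Control WT mice ended when all 9 mice entered the fit (edgeR adjusted p = 0.273) and without Control WT mouse 2 (0.07) or 3 (0.124) or AOM-DSS Claudin-2TG mouse 8 (0.088) or 9 (0.0822).

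The ratio of *Cd14* to *Tlr4* per kilobase was 11.4, 16.6 and 17.4 in Control WT mice. In AOM-DSS WT mice it was 14.2, 12.3 and 21.0, and in AOM-DSS Claudin-2TG mice 8.35, 9.33 and 10.6. The transgenic mice were the lowest 3 of the 9. *Ly96*, which encodes the protein that binds lipopolysaccharide beside Tlr4 and was named here after its values were seen, stayed between 6.17 and 9.90 CPM in all mice and was not called in any comparison.

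*Tlr5* (ENSMUSG00000079164, chr1:182954788-182976044, plus strand), the flagellin receptor, was low, with 9 to 46 counts per mouse. Control WT mice had 1.39, 2.31 and 2.0 CPM, AOM-DSS WT mice 1.22, 0.84 and 0.60 CPM, and AOM-DSS Claudin-2TG mice 1.31, 1.98 and 1.99 CPM. All AOM-DSS WT mice were below the mice of both other groups, with mouse 4 nearest to them. The difference was not called against Control WT mice (log2 fold change -1.06, 95% interval -1.90 to -0.21, edgeR adjusted p = 0.0876) or against AOM-DSS Claudin-2TG mice (0.95, 95% interval 0.10 to 1.80, edgeR adjusted p = 0.163). Without AOM-DSS WT mouse 4 the former was called, at -1.35 (edgeR adjusted p = 0.0346).

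Of the endosomal receptors, *Tlr3* (ENSMUSG00000031639, chr8:45395665-45410608, minus strand), which senses RNA duplexes and signals through Ticam1, had the highest level and the smallest differences. It lay at 28.2, 31.6 and 36.9 CPM in Control WT mice, at 28.5, 36.6 and 32.9 CPM in AOM-DSS WT mice and at 38.9, 29.1 and 26.6 CPM in AOM-DSS Claudin-2TG mice. The 3 groups overlapped throughout. Its log2 fold changes of 0.04, -0.07 and -0.03 had 95% intervals within -0.47 and 0.37, and their signs turned under several settings, among them lane 1 alone for the first (-0.03) and lane 2 alone for the third (0.03).

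*Tlr7* (ENSMUSG00000044583, chrX:167304929-167330558, minus strand), a sensor of RNA known from plasmacytoid dendritic cells, B cells and macrophages, was near the detection limit. AOM-DSS WT mice had 16, 20 and 11 counts (0.81, 0.88 and 0.74 CPM), Control WT mice 8, 6 and 4 counts (0.40, 0.30 and 0.17 CPM), and AOM-DSS Claudin-2TG mice 3, 2 and 4 counts (0.21, 0.10 and 0.30 CPM). The AOM-DSS WT mice were above both other groups, which overlapped. Log2 fold changes were 1.51 in AOM-DSS WT against Control WT mice (SE 0.41, edgeR adjusted p = 0.0442) and -2.07 between the treated groups (SE 0.48, edgeR adjusted p = 0.0312). Summed over each group, 47 counts in AOM-DSS WT mice stood against 9 in AOM-DSS Claudin-2TG mice, a depth-corrected ratio of 4.73 with an exact 95% counting interval of 2.29 to 11.0 that leaves out the spread between mice. The gene entered both tests only through the AOM-DSS WT mice, which favours a difference, so the calls are given as values and not as support for a change. DESeq2 called neither (adjusted p = 0.118 and 0.0926). The call against Control WT mice ended in all 6 fits that left out 1 mouse (edgeR adjusted p from 0.0503 to 0.166), without a filter on low counts (0.0832) and with voom (0.0535), and the call between the treated groups held in 1 of the 6, without AOM-DSS WT mouse 4 (0.0292).

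*Tlr9* (ENSMUSG00000045322, chr9:106222598-106226883, plus strand), which senses bacterial DNA and is known from B cells and plasmacytoid dendritic cells, had 2 to 17 counts. Control WT mice had 0.85, 0.20 and 0.13 CPM, AOM-DSS WT mice 0.41, 0.62 and 0.60 CPM, and AOM-DSS Claudin-2TG mice 0.14, 0.20 and 0.15 CPM. The highest value of all belonged to Control WT mouse 1, whose 8 B cell markers summed to 38.3 CPM against 4.27 and 6.73 CPM in the other Control WT mice. Among AOM-DSS WT mice the order was the reverse, with the lowest *Tlr9* in the mouse with the highest B cell sum (63.9 CPM) and the highest *Tlr9* in the mouse with the lowest (31.8 CPM). These mice had 8, 14 and 9 counts of *Tlr9*, so this order rests on few counts. The part of B cells in the level of *Tlr9* was not tested. AOM-DSS WT and Control WT mice differed by 0.50 on the log2 scale (95% interval -1.03 to 2.04, edgeR adjusted p = 0.637), and the value was 1.71 without Control WT mouse 1 (0.121). For this test *Tlr9* passed the filter on low counts in 2 AOM-DSS WT mice and 1 Control WT mouse, so its entry rests on the higher group. Too few reads were left for the other comparisons. Summed over the groups, there were 24 counts in Control WT, 31 in AOM-DSS WT and 8 in AOM-DSS Claudin-2TG mice. The depth-corrected ratio of AOM-DSS WT to Control WT mice was 1.43 (exact 95% counting interval 0.815 to 2.55) and that of AOM-DSS WT to AOM-DSS Claudin-2TG mice 3.51 (1.58 to 8.84), and these intervals leave out the spread between mice.

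*Myd88* (ENSMUSG00000032508, chr9:119335934-119341411, minus strand), the shared adaptor, varied little between mice. Its levels were 38.3, 38.9 and 40.7 CPM in Control WT mice, 43.4, 50.7 and 38.6 CPM in AOM-DSS WT mice and 38.4, 38.7 and 44.6 CPM in AOM-DSS Claudin-2TG mice. All groups overlapped. The log2 fold changes of 0.20 (95% interval -0.08 to 0.48), -0.15 (95% interval -0.47 to 0.17) and 0.05 (95% interval -0.17 to 0.28) were not called, and no interval reached the 1.19 of *Tlr2*. Library size alone as the scaling turned the last sign (-0.07). The overlapping gene *Acaa1a* was not called either, with log2 fold changes of 0.05, 0.34 and 0.40.

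*Sigirr* (ENSMUSG00000025494, chr7:141091175-141100546, minus strand), a receptor of the interleukin-1 receptor family that restrains Toll-like and interleukin receptor signalling and is known from colon epithelium, had the smallest spread over the 9 mice of the 10 genes. Control WT mice had 39.9, 50.5 and 42.3 CPM, AOM-DSS WT mice 51.5, 45.5 and 45.8 CPM, and AOM-DSS Claudin-2TG mice 42.5, 46.0 and 42.3 CPM. The groups overlapped in every comparison, with log2 fold changes of 0.13 (95% interval -0.16 to 0.42), -0.15 (95% interval -0.42 to 0.12) and -0.01 (95% interval -0.26 to 0.23). The ratio of *Tlr2* to *Sigirr* per kilobase ranged from 0.164 to 0.364 in Control WT mice, from 0.358 to 0.747 in AOM-DSS WT mice and from 0.172 to 0.210 in AOM-DSS Claudin-2TG mice.

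The remaining mouse receptors were low. *Tlr12*, whose protein recognises a protein of protozoan parasites, had 0.85, 0.50 and 0.78 CPM in Control WT mice, 2.03, 3.85 and 2.88 CPM in AOM-DSS WT mice and 0.69, 0.46 and 0.15 CPM in AOM-DSS Claudin-2TG mice. It was called in both comparisons with AOM-DSS WT mice, with log2 fold changes of 2.05 (SE 0.36, edgeR adjusted p = 0.0157) against Control WT mice and -2.75 (SE 0.49, edgeR adjusted p = 0.0138) between the treated groups. *Tlr13*, a sensor of bacterial ribosomal RNA, reached 2.70 and 2.01 CPM in AOM-DSS WT mice 5 and 6 but 0.51 CPM in mouse 4, and its log2 fold change of 1.76 against Control WT mice was not called (edgeR adjusted p = 0.109). Both genes entered these tests only through the AOM-DSS WT mice, as *Tlr7* did. *Tlr8* had at most 14 counts and *Tlr11* at most 5 counts in any mouse, and neither was tested.

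Beyond the 10 members, 70 genes of the pathway were listed in 6 groups, the 5 other Toll-like receptors included. In AOM-DSS WT against Control WT mice 63 were tested, 10 rose, 4 fell (14 called, beside 15% of all genes), 49 did not pass the test, and the median log2 fold change was 0.23. Between the treated groups 62 were tested, 1 was higher and 9 were lower in AOM-DSS Claudin-2TG mice (10 called, beside 9.54% of all genes), 52 did not pass, and the median was -0.24. In AOM-DSS Claudin-2TG against Control WT mice 59 were tested and 1 fell (beside 10.0% of all genes called), with a median of -0.09. Of the genes called, 4 of the 10 that rose (*Tlr12*, *Il1b*, *Acod1* and *Saa3*) and 6 of the 9 that were lower (*Tlr12*, *Cd180*, *Pik3ap1*, *Il1rl1*, *Il1b* and *Acod1*) entered the test only through the AOM-DSS WT mice, which favours a difference, so they are given as values. The gene that fell in AOM-DSS Claudin-2TG against Control WT mice was *Nfkbia*, which encodes an NF-kB inhibitor induced by NF-kB itself and is named here after its values were seen, with a log2 fold change of -0.51 (SE 0.11, edgeR adjusted p = 0.0181). These counts rest on few mice: without AOM-DSS WT mouse 4 they were 26 called in AOM-DSS WT against Control WT mice and 28 between the treated groups, and without AOM-DSS Claudin-2TG mouse 8 or 9 none was called between the treated groups.

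**Figure D4:**
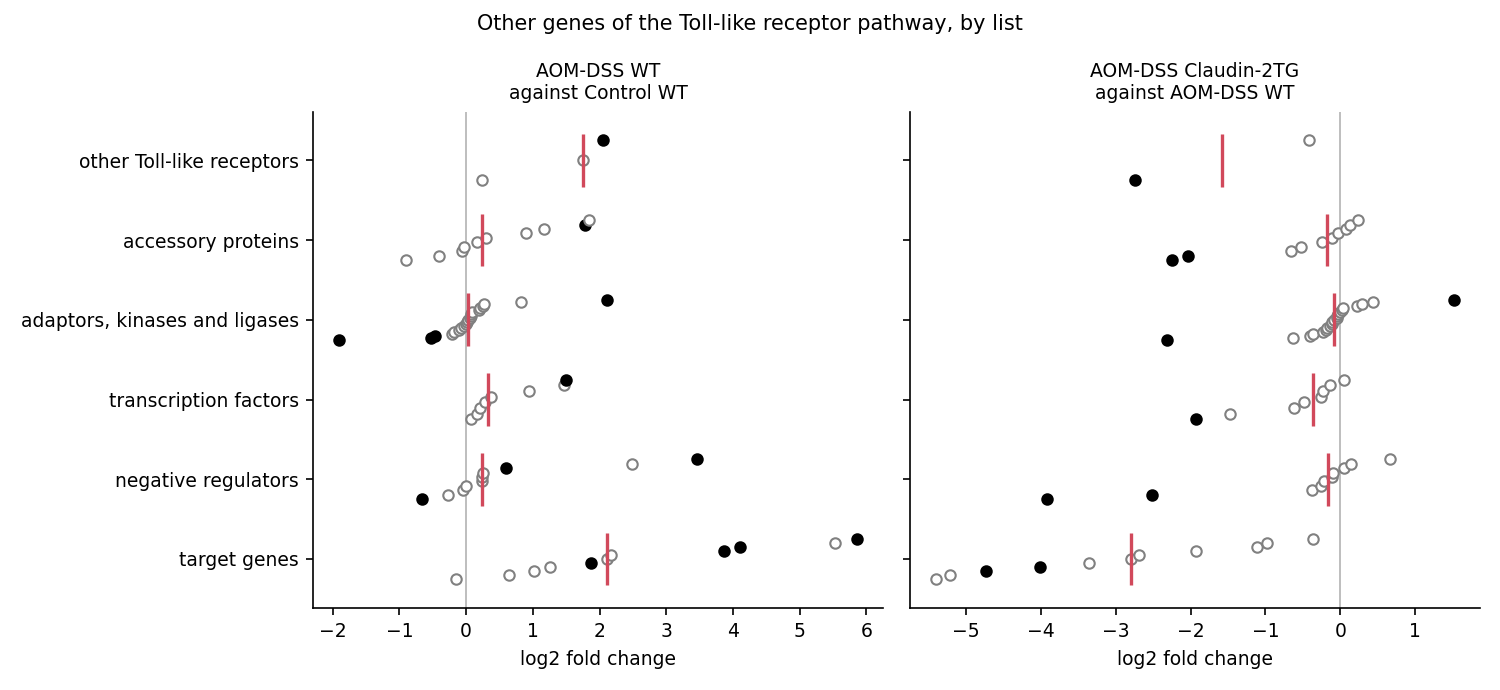
Log2 fold changes of the tested genes of 6 pathway lists, in AOM-DSS WT against Control WT mice and in AOM-DSS Claudin-2TG against AOM-DSS WT mice. Filled points were called at an adjusted p under 0.05, and red lines are the medians of the lists. The target genes spread furthest, with medians of 2.12 and -2.80, and the adaptors, kinases and ligases centre near 0, with medians of 0.03 and -0.09.

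Of 10 accessory proteins, *Ly86* was the one that rose in AOM-DSS WT mice, and *Cd180* and *Ly86* fell between the treated groups. *Cd180* and *Ly86* form a receptor complex related to Tlr4 that is known from B cells and other antigen-presenting cells. *Ly86* was at 2.14, 0.75 and 1.43 CPM in Control WT mice, 2.64, 5.97 and 6.16 CPM in AOM-DSS WT mice and 1.45, 1.37 and 0.81 CPM in AOM-DSS Claudin-2TG mice, with log2 fold changes of 1.79 (edgeR adjusted p = 0.0397) and -2.03 (0.0191). *Cd180* had log2 fold changes of 1.84 (edgeR adjusted p = 0.145) and -2.25 (0.0186), and entered both tests only through the AOM-DSS WT mice. *Unc93b1*, the chaperone that brings the nucleic acid receptors to endosomes, had 60.2 to 67.4 CPM in Control WT mice and 70.5 to 81.2 CPM in AOM-DSS WT mice, which did not overlap but were not called (log2 fold change 0.30, edgeR adjusted p = 0.0945). *Nrros*, a regulator of receptor stability in phagocytes, was not called at 0.90 (edgeR adjusted p = 0.0877) and -0.66 (0.164).

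Among 22 adaptors, kinases and ligases, *Pik3ap1* rose and *Ticam1*, *Peli1* and *Peli2* fell in AOM-DSS WT mice, while *Peli2* was higher and *Pik3ap1* lower in AOM-DSS Claudin-2TG than in AOM-DSS WT mice. *Peli1* and *Peli2* encode Pellino ubiquitin ligases that act on the Irak kinases. *Peli2* stood at 14.5, 15 and 15.4 CPM in Control WT mice, at 5.08, 3.27 and 3.42 CPM in AOM-DSS WT mice and at 12.9, 11.0 and 10.3 CPM in AOM-DSS Claudin-2TG mice. The groups with and without treatment did not overlap for it in WT mice, nor did the treated groups, with log2 fold changes of -1.90 (SE 0.22, edgeR adjusted p = 0.00504) and 1.51 (SE 0.24, edgeR adjusted p = 0.0107). Of the pathway genes named here it was the one called under all 16 alternatives in AOM-DSS WT against Control WT mice, and between the treated groups it lost its call without AOM-DSS Claudin-2TG mouse 8 or 9. *Peli1* had log2 fold changes of -0.52 (edgeR adjusted p = 0.0324) and 0.43 (0.101), and *Ticam1*, the adaptor of Tlr3, -0.46 (0.038) and 0.28 (0.297). *Pik3ap1*, an adaptor that links B cell and Toll-like receptors to PI3K, had 2.11 (edgeR adjusted p = 0.0384) and -2.31 (0.0235). Between the treated groups it entered the test only through the AOM-DSS WT mice.

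Of the 8 transcription factors, *Irf5*, which drives inflammatory cytokine genes downstream of Myd88, was called in both comparisons. Its 4.78, 1.56 and 2.43 CPM in Control WT mice stood against 5.89, 9.33 and 9.17 CPM in AOM-DSS WT mice and 3.10, 2.03 and 1.33 CPM in AOM-DSS Claudin-2TG mice. The log2 fold changes were 1.50 (edgeR adjusted p = 0.047) and -1.93 (0.0138). *Rel*, an NF-kB subunit of lymphoid and myeloid cells, was at 8.64 CPM in AOM-DSS WT mouse 4 but at 37.0 and 23.8 CPM in mice 5 and 6, and its differences of 1.46 (edgeR adjusted p = 0.0783) and -1.48 (0.109) were not called. *Nfkb2* at 0.28 (edgeR adjusted p = 0.133) and -0.48 (0.0503) and *Irf7*, the interferon regulator, at 0.95 (0.0882) and -0.62 (0.166) were not called either.

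In the list of 10 negative regulators, *Il1rl1* and *Tnip2* rose and *Tnip1* fell in AOM-DSS WT mice, and *Il1rl1* and *Nlrc5* were lower in AOM-DSS Claudin-2TG than in AOM-DSS WT mice. *Il1rl1* encodes the interleukin-33 receptor. It had 2.44, 0.70 and 0.83 CPM in Control WT mice, 2.59, 26.1 and 14.4 CPM in AOM-DSS WT mice and 1.65, 0.61 and 0.66 CPM in AOM-DSS Claudin-2TG mice. The log2 fold changes were 3.46 (edgeR adjusted p = 0.0453) and -3.91 (0.0396). Between the treated groups *Il1rl1* entered the test only through the AOM-DSS WT mice. *Tnip1* and *Tnip2*, partners of the NF-kB inhibitor A20, moved in opposite directions: *Tnip1* by -0.66 (edgeR adjusted p = 0.0354) and *Tnip2* by 0.60 (0.0272) in AOM-DSS WT against Control WT mice, with 0.67 (0.0506) and -0.38 (0.177), not called, between the treated groups. *Nlrc5*, known as an activator of MHC class I genes, had 2.49 (edgeR adjusted p = 0.0827) and -2.51 (0.019).

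The 15 target genes held the largest differences, of which 11 were tested. *Il1b*, *Ptgs2*, *Acod1* and *Saa3* rose in AOM-DSS WT mice, and *Il1b* and *Acod1* were lower in AOM-DSS Claudin-2TG mice. Against Control WT mice, *Il1b*, *Acod1* and *Saa3* entered the test only through the AOM-DSS WT mice. Between the treated groups *Il1b*, *Acod1*, *Saa3* and *Ptgs2* did. That favours a difference, so these results are given as values. *Il1b*, an inflammatory cytokine, had 0.70, 0.40 and 0.69 CPM in Control WT mice, 1.78, 18.8 and 10.0 CPM in AOM-DSS WT mice and 0.62, 0.46 and 0.89 CPM in AOM-DSS Claudin-2TG mice. The log2 fold changes were 4.10 (SE 0.84, edgeR adjusted p = 0.0249) and -4.00 (SE 0.86, edgeR adjusted p = 0.0322). *Saa3*, an acute-phase protein of inflamed tissue, was at 1.17 CPM in AOM-DSS WT mouse 4 and at 23.2 and 41.8 CPM in mice 5 and 6, and its difference of 5.86 was called (edgeR adjusted p = 0.0325) while that of -5.39 was not (0.0501). *Ptgs2*, the inducible cyclooxygenase, had 1.87 (edgeR adjusted p = 0.0185) and -1.93 (0.0637), and *Acod1*, which makes itaconate in activated macrophages, 3.87 (0.0478) and -4.73 (0.0397). *Il6*, *Il12b*, *Cxcl2* and *Ifnb1* had too few reads for a test.

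Of the immune cell markers, those of macrophages, T cells and dendritic cells were highest in AOM-DSS WT mice by their sums, as were those of neutrophils without *Ly6g*. The 10 macrophage and monocyte markers summed to 112, 63.1 and 80.3 CPM in Control WT mice, to 146, 305 and 328 CPM in AOM-DSS WT mice and to 77.8, 50.8 and 41.5 CPM in AOM-DSS Claudin-2TG mice. Of these markers 7 rose in AOM-DSS WT mice and 7 were lower in the transgenic mice, where over all genes 8.04% were called higher and 7.35% lower in the same comparisons, none was at 0 in all mice of a group, and mouse 4 again lay nearest to the other groups. The 7 T cell markers summed to 2.74 to 7.30, 13.6 to 27.9 and 3.60 to 7.09 CPM in Control WT, AOM-DSS WT and AOM-DSS Claudin-2TG mice, with 5 called higher and then 6 lower. The 7 dendritic cell markers summed to 2.86 to 6.52, 10.7 to 21.1 and 2.66 to 4.41 CPM in the same order of groups. Of these, 3 of 4 tested were called higher and then 2 of 3 tested lower. *Cd5*, *Cd28* and *Ccr7* had too few reads for a test in AOM-DSS Claudin-2TG against Control WT mice. They entered the tests only through the AOM-DSS WT mice, which favours a difference, so their calls are given as values. Entry was not checked for the remaining T cell and dendritic cell markers. The 8 B cell markers ranged from 4.27 to 38.3, from 31.8 to 63.9 and from 3.40 to 24.1 CPM, with none called by edgeR in AOM-DSS WT against Control WT mice (2 at an unadjusted p under 0.05, 2 by DESeq2, 0 by voom) and 1 called lower between the treated groups (7 by DESeq2, 1 by voom). Of the 8 neutrophil markers, *Ly6g* made up most of the sum, at 137 to 207, 298 to 327 and 302 to 350 CPM. The other 7 summed to 0.151 to 0.946, 2.03 to 55.0 and 0.222 to 0.557 CPM, with *Retnlg* at 0 in all Control WT and *Mmp8* at 0 in all AOM-DSS Claudin-2TG mice. All 4 tested were called higher (4 by DESeq2, 1 by voom), then 2 of 3 tested lower (2 by DESeq2, 1 by voom). Only *Ly6g* was tested in AOM-DSS Claudin-2TG against Control WT mice, and it was called higher. The others called, *S100a8*, *S100a9* and *Csf3r*, entered only through the AOM-DSS WT mice, which favours a difference. The part of these immune cells in the levels of *Tlr2*, *Tlr7*, *Tlr9*, *Cd14* and the pathway genes was not tested.

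Markers of the epithelium and the colon wall differed for some lists. Of the 7 epithelial markers, *Krt8* and *Cldn7* were called higher in AOM-DSS Claudin-2TG than in Control WT mice (2 by DESeq2, 2 by voom). There 3.92% of all genes were called higher. In the other comparisons edgeR called none, while DESeq2 called 2 and voom 1 higher in AOM-DSS WT against Control WT mice. The 6 colonocyte markers summed to 7020 to 8640 CPM in Control WT mice, 4260 to 7460 CPM in AOM-DSS WT mice and 7050 to 10600 CPM in AOM-DSS Claudin-2TG mice, so that the sums of the AOM-DSS WT mice overlapped with both other groups but had the lowest median, as *Tlr1* and *Tlr5* had. *Aqp8* and *Car4* of this list were lower in AOM-DSS WT mice and higher again in AOM-DSS Claudin-2TG mice. Over all genes, 6.92% were called lower and 2.19% higher in these comparisons. The 5 Paneth cell markers summed to 25.5 to 34.5 CPM in Control WT, 182 to 1760 CPM in AOM-DSS WT and 37.9 to 51.7 CPM in AOM-DSS Claudin-2TG mice. Of these, 4 were called higher (4 by DESeq2, 2 by voom) and then 1 lower (4 by DESeq2, 1 by voom). Over all genes, 8.04% were called higher in AOM-DSS WT against Control WT mice (1752 genes by DESeq2, 1149 by voom). Between the treated groups 7.35% were called lower (1484 genes by DESeq2, 1040 by voom). In AOM-DSS Claudin-2TG against Control WT mice 1 Paneth cell marker was called higher (4 by DESeq2, 1 by voom), where 3.92% of all genes were. The 6 fibroblast markers summed to 292 to 422 CPM in Control WT, 446 to 1120 CPM in AOM-DSS WT and 181 to 260 CPM in AOM-DSS Claudin-2TG mice. The AOM-DSS WT mice thus lay above both other groups here as well. None of the 6 was called higher by edgeR against Control WT mice (4 at an unadjusted p under 0.05, 3 by DESeq2, 1 by voom). Between the treated groups 2 were called lower (6 by DESeq2, 3 by voom), beside 7.35% of all genes. The 6 endothelial markers summed to 30.5 to 37.9, 27.6 to 44.1 and 14.2 to 17.2 CPM in the same order of groups. None was called in AOM-DSS WT against Control WT mice. Between the treated groups 3 were called lower (4 by DESeq2, 3 by voom), beside 7.35% of all genes. Against Control WT mice, the transgenic mice had 4 of the 6 endothelial and 1 of the 6 fibroblast markers called lower, where 6.07% of all genes were. DESeq2 called 4 and 3 of them lower and voom 4 and 1, where over all genes DESeq2 called 999 lower and voom 805. The 6 smooth muscle markers summed to 1950 to 3970 CPM in Control WT, 1040 to 2870 CPM in AOM-DSS WT and 939 to 1450 CPM in AOM-DSS Claudin-2TG mice, with 2 called lower in the last group than in the first (6 by DESeq2, 2 by voom). These are the groups in which *Cd14* differed, and the part of these cells in that difference was not tested. Nor was the part of the fibroblast, Paneth cell and endothelial markers in the level of *Tlr2* tested, or that of the colonocyte markers in *Tlr1* and *Tlr5*.

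**Figure D5:**
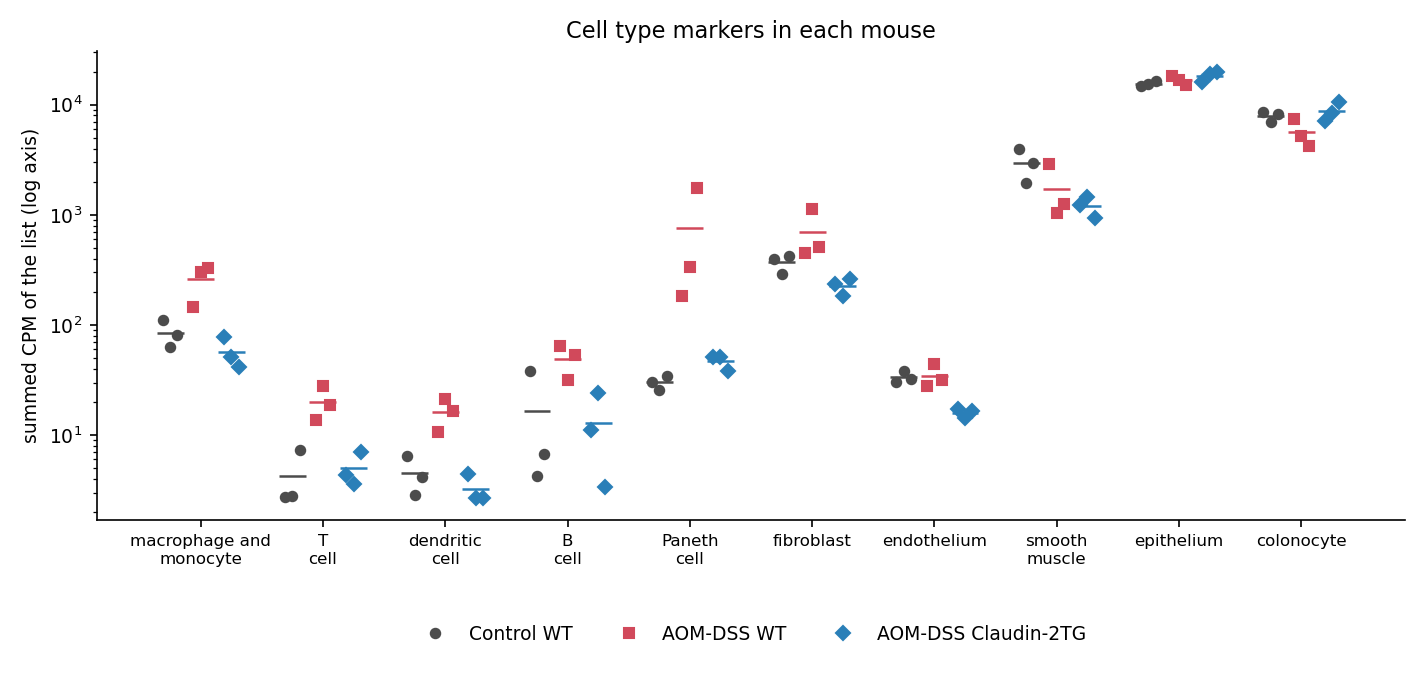
Summed CPM of 10 lists of cell type markers in each mouse, on a log axis. Points are mice and short lines are group means (n = 3), and the neutrophil list is left out because *Ly6g* dominates it. The macrophage, T cell, dendritic cell, fibroblast and Paneth cell sums of the AOM-DSS WT mice lie above those of both other groups, and the epithelial sums lie between 14900 and 19800 CPM in all mice.

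The genes whose levels over the 9 mice were closest to those of a member were looked up among 14480 genes tested in all comparisons, by the root-mean-square difference of mean-centred log2 CPM. Closest to *Tlr2* were *Pycr1* at 0.16, which encodes an enzyme of proline synthesis, and *Def6* at 0.18, which encodes a signalling protein of lymphocytes, beside a spread of *Tlr2* itself of 0.78. *Tlr1*, with a spread of 0.31, was closest to *Arsa* at 0.08, a lysosomal sulfatase, and *Mettl7a1* at 0.08. *Cd14*, with a spread of 0.37, was closest to *Exoc4* at 0.10 and *Dpysl3* at 0.11. *Tlr4* had *Trim31* at 0.13 and *Gm11545* at 0.15, and *Tlr9* had *Ccl20* and *Gpr18* at 0.37 each. *Tlr7* had *Fgf7* at 0.23, a growth factor of stromal cells, and *Slc25a45* at 0.26, and *Tlr5* had *Ccdc92b* and *Rbp7* at 0.16 each. *Myd88*, *Sigirr* and *Tlr3*, whose spreads of 0.13, 0.12 and 0.19 were the smallest, had neighbours at 0.05 to 0.08. These values describe 9 mice in 3 groups and share the libraries' scaling.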

How the data were processed

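The authors extracted total colon RNA, sequenced each library in 2 lanes and counted reads on genes with featureCounts. The deposited values are whole-number counts, without normalization, in 18 columns for 9 libraries, and all columns were used. The submitters' processing notes list HISAT2, featureCounts, Subread and GRCm38, while the methods name TopHat2. The versions, the strand setting and the annotation release are not given in the sources used here. The deposited gene length, a number of exon bases, served for values per kilobase. GENCODE M21 lists 47310 of the 47729 identifiers, and 47224 have a symbol in the gene name table used here.

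Lanes differed by little more than counting noise (chi-square per degree of freedom 0.9948 to 1.0572 on genes with at least 20 counts, against 16.8 to 66.3 between mice of a group) and were added up, so that each of the 9 mice is 1 replicate. Depth was 14142711 to 22262546 counts per mouse. Groups were taken from the genotype and treatment labels. Pairs of groups were compared on their 6 mice with edgeR 4.0.16 in R 4.3.3 (filterByExpr with a minimum count of 10 and a minimum total of 15, TMM factors, robust quasi-likelihood fit, two-sided test), with Benjamini-Hochberg adjustment over all genes tested. Confidence intervals and standard errors of log2 fold changes came from this fit. For CPM, TMM factors were computed with all 9 mice together. An exact permutation test, two-sided, was run for single genes on log2(CPM + 0.5). The fit was tested on simulated data before use. The biological coefficient of variation was 0.218, 0.217 and 0.149 in AOM-DSS WT against Control WT, AOM-DSS Claudin-2TG against AOM-DSS WT and AOM-DSS Claudin-2TG against Control WT mice.

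The members, the 6 pathway lists and the 11 marker lists were chosen with earlier results of these data known. Named were all members and other Toll-like receptors, up to 4 genes of each pathway list with the lowest adjusted p in either comparison with AOM-DSS WT mice, and the 2 genes most similar to each member. Genes named beyond that are marked where they appear or belong to a marker list. The alternatives were DESeq2 1.42.0, library size, upper-quartile and DESeq2 size factors, no filter, a minimum of 10 counts in every mouse, a joint fit to the 9 mice, lane 1 or lane 2 by itself, voom of limma 3.58.1 with a spread for each group, and leaving out each mouse in turn. The neutrophil sum without *Ly6g* was added after the data were seen. Motifs and shared stretches were searched in RefSeq promoter windows and GENCODE M21 transcripts, with Python 3.11.15.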

Additional observations from a re-analysis of the deposited data

How the results depend on the processing

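Of the 10 genes, the number called in AOM-DSS WT against Control WT mice was 2, and it was 1 (*Tlr2*) with DESeq2, with at least 10 counts in every mouse, with lane 1 only, with lane 2 only and with voom, and 0 without a filter on low counts. With 1 mouse left out it ranged from 0 to 4, with 4 only without AOM-DSS WT mouse 4 and 0 without any other. *Tlr7* could not enter the fits with at least 10 counts in every mouse or with 1 lane, which explains its absence there. In AOM-DSS Claudin-2TG against AOM-DSS WT mice the number was 2, and 1 (*Tlr2*) with at least 10 counts in every mouse, lane 1 only and lane 2 only. With 1 mouse left out it ranged from 0 to 4, with 4 without AOM-DSS WT mouse 4 and 0 without AOM-DSS Claudin-2TG mouse 8 or 9. In AOM-DSS Claudin-2TG against Control WT mice it was 1, then 2 (*Tlr2* and *Cd14*) without a filter, 0 with all 9 mice in the fit, and 0 to 1 with 1 mouse left out, with 0 without Control WT mouse 3 or AOM-DSS Claudin-2TG mouse 8 or 9. Apart from the cases named here, the cause was not tested.

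*Tlr2* kept its sign in all 16 alternatives of each comparison, with log2 fold changes of 0.95 to 1.41, -1.98 to -1.58 and -0.79 to -0.42. *Tlr7* ranged from 1.21 to 1.79 and from -2.42 to -1.69. Signs turned for several members with small values and for *Tlr6*, which is no member. In AOM-DSS WT against Control WT mice *Tlr3* was -0.032 with lane 1 only and -0.048 to 0.135 with 1 mouse left out, and *Tlr4* -0.17 to 0.40 with 1 mouse left out. Between the treated groups *Tlr4* was -0.049 with library size only and -0.17 to 0.41 with 1 mouse left out, *Tlr3* -0.242 to 0.045 with 1 mouse left out, and *Tlr6* 0.23 with lane 1 only. In AOM-DSS Claudin-2TG against Control WT mice library size only gave -0.073 for *Tlr1* and -0.065 for *Myd88*, lane 1 only gave 0.17 for *Tlr5*, and lane 2 only gave 0.027 for *Tlr3* and 0.050 for *Sigirr*. With 1 mouse left out these genes ranged from -0.020 to 0.116 (*Tlr1*), -0.022 to 0.081 (*Myd88*), -0.271 to 0.060 (*Tlr5*), -0.215 to 0.078 (*Tlr3*) and -0.074 to 0.093 (*Sigirr*). Library size only moved the median of all genes to -0.09 between the treated groups and to -0.11 in AOM-DSS Claudin-2TG against Control WT mice.

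The 14 pathway genes called in AOM-DSS WT against Control WT mice were 8 with lane 2 only and 1 to 26 with 1 mouse left out. The 10 called between the treated groups were 21 with DESeq2, 19 with all 9 mice, 5 with at least 10 counts in every mouse and 0 to 28 with 1 mouse left out. The 1 called in AOM-DSS Claudin-2TG against Control WT mice was 0 to 5 over all settings. Over all genes, the 2310 called in AOM-DSS WT against Control WT mice were 135 to 4080 with 1 mouse left out. The 1421 called between the treated groups were 908 with at least 10 counts in every mouse, 2136 with all 9 mice and 58 to 2894 with 1 mouse left out. The 1501 called in AOM-DSS Claudin-2TG against Control WT mice were 2567 without a filter, 445 with all 9 mice and 525 to 1383 with 1 mouse left out. No paired analysis was possible because the groups share no replicate numbers. Depth limits *Tlr5*, *Tlr6*, *Tlr7*, *Tlr8*, *Tlr9*, *Tlr11* and *Tlr13*, which had at most 61 counts in any mouse.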
